A study of Arabidopsis thaliana with 24 samples.

Results

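Loss of the extracellular ATP receptor P2K1 changed the response of cuticle-defective Arabidopsis seedlings to ATP at a small set of genes. The comparison was an interaction: the change with ATP in the p2k1-3 bdg-8 double mutant minus the change with ATP in bdg-8. It used 12 of the 24 libraries of the series, in 4 groups of 3: double-mutant seedlings given 150 µM ATP for 30 min, double-mutant seedlings given mock, bdg-8 seedlings given the same ATP treatment, and bdg-8 seedlings given mock. All 4 groups carried bdg-8, and the double-mutant groups carried p2k1-3 as well. The other 12 libraries, from p2k1-3 and from the wild type Col-0 under the same treatments, entered the estimate of the spread and gave the same comparison in plants with wild-type BDG1. The labels name the tissue as seedling and give no age, growth condition or nature of the alleles. They do not say whether replicates came from separate cultures, so a p-value here measures how far these libraries scattered, and that scatter may be technical.

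ATP that escapes from damaged plant cells acts as a danger signal. P2K1, also called DORN1, is a plasma-membrane kinase with a lectin domain that binds it, and the signal is known to raise cytosolic calcium and to switch on wound and defence genes, many of them shared with jasmonate signalling. BDG1 (BODYGUARD) is an epidermal hydrolase needed to form an intact cuticle, and bdg mutants are known for a leaky cuticle and altered defence.

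The files held raw counts of reads per gene, with 25856588 to 35239775 counts per library in genes. Levels below are CPM, the usual count scaled to library size after TMM adjustment. Responses and their differences are log2 values ± SE from 1 edgeR quasi-likelihood model of all 24 libraries, and a gene was called at a Benjamini-Hochberg adjusted p under 0.05 over the 20995 genes tested. Replicate 3 stood apart in every group: it was the middle one of the 3 libraries at 40.2 to 51% of genes over the 8 groups, against 23.9 to 29.7% for replicate 1 and 25.1 to 30.1% for replicate 2. A mixture of the other 2 libraries with a weight of 0.4 to 0.525 on replicate 1 fitted it best. Its median squared deviation from that mixture, scaled by counting noise, was 0.559 to 0.811 over the 8 groups, against 0.825 to 1.29 for replicates 1 and 2 treated the same way and 0.455 for counting noise alone. The labels say nothing of how replicate 3 was made. If it was not independent of replicates 1 and 2, the standard errors and adjusted p given with all 3 replicates are too small. The counts of calls are therefore also given without it, and no member of the gene lists below was called in the interaction by edgeR without it.

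The 2 mutated genes were examined first. P2K1 (AT5G60300) had 11.1, 10.8 and 11.3 CPM in double-mutant libraries with ATP and 10.1, 10.6 and 11.1 CPM in double-mutant mock, against 35, 31.4 and 31.8 CPM in bdg-8 with ATP and 25.0, 21.3 and 24.3 CPM in bdg-8 mock. The double-mutant libraries lay below every bdg-8 library, and transcripts of the locus remained detectable in them. P2K1 itself had a smaller ATP response in the double mutant (0.06 against 0.48 in bdg-8), a difference of -0.42 ± 0.10 (edgeR adjusted p = 0.045). BDG1 (AT1G64670) had 114, 110 and 112 CPM in the double mutant with ATP and 15.5, 14.8 and 15.7 CPM in its mock libraries, against 116, 96.4 and 109 CPM in bdg-8 with ATP and 16.1, 12.7 and 13.7 CPM in bdg-8 mock. BDG1 transcript rose with ATP in both genotypes and the genotypes overlapped under both treatments. The rise was seen only with the bdg-8 allele. In plants with wild-type BDG1 its response was 0.04 in Col-0 and 0.08 in p2k1-3, and neither was called (edgeR adjusted p = 0.8 and 0.47). The difference between the BDG1 responses of the double mutant and bdg-8 was -0.05 ± 0.10 (edgeR adjusted p = 0.92).

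Both genotypes responded broadly to ATP. In the double mutant 3598 genes rose (17.1% of genes tested) and 3472 fell (16.5%), and in bdg-8 3916 rose (18.7%) and 3715 fell (17.7%). Without replicate 3, 2578 rose and 1691 fell in the double mutant, and 2877 rose and 1975 fell in bdg-8. With upper-quartile scaling, which shifted the median response of all genes to -0.13 in the double mutant and -0.15 in bdg-8 (each -0.02 with TMM scaling), the splits were 2798 higher and 8101 lower in the double mutant, and 2928 higher and 8923 lower in bdg-8. The shift was shared by both genotypes: the median difference between their responses over all genes was -0.01 with TMM scaling and 0.01 with upper-quartile scaling.

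The ATP response differed between the double mutant and bdg-8 at 134 genes. It was lower in the double mutant at 102 of them (0.486% of genes tested) and higher at 32 (0.152%). The difference reached at least 2-fold at 16 of the lower and 14 of the higher genes, and 2245 genes had an unadjusted p under 0.05. Among the lower genes the median response was 0.55 in the double mutant and 1.04 in bdg-8, so that most were ATP-raised genes raised less. The level of 101 of the 102 was lower in the double mutant than in bdg-8 once ATP was given, with a median difference of -0.47, while the median difference in mock was 0.07. The 32 higher genes had a median response of 0.49 in the double mutant and -0.39 in bdg-8. These medians describe genes chosen on the same values.

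**Figure D1:**
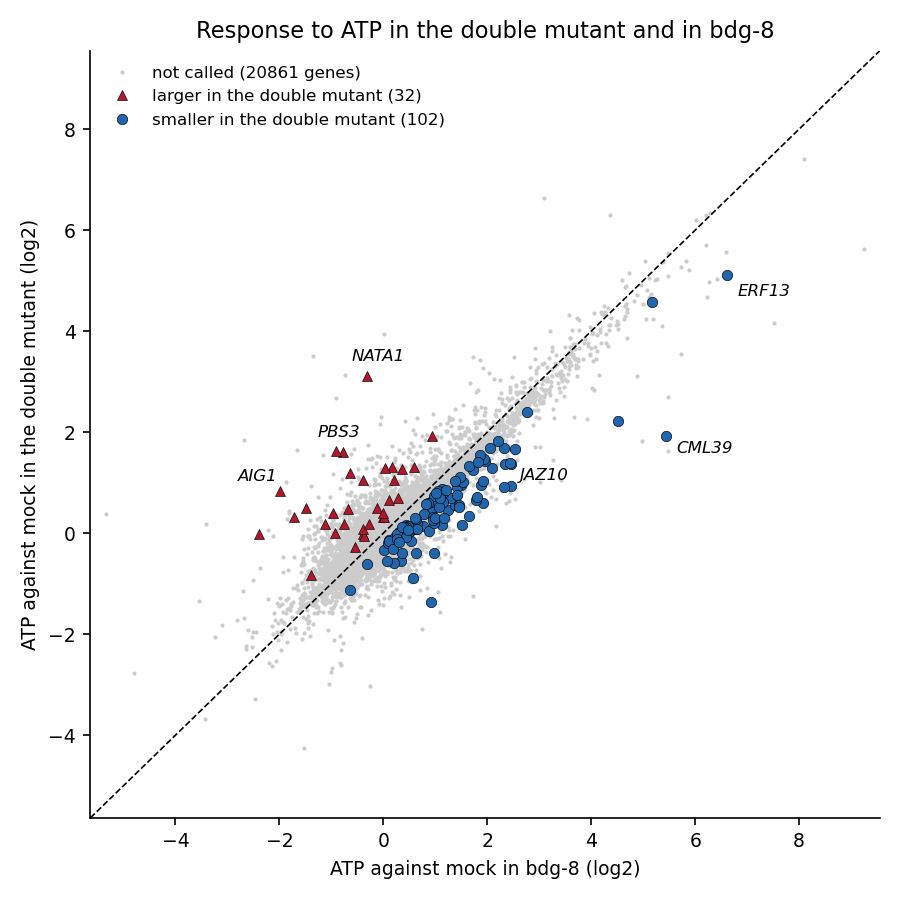
Response to ATP (log2, ATP against mock) of each of the 20995 genes tested, in the double mutant (vertical axis) against bdg-8 (horizontal axis). Red triangles mark the 32 genes with a higher response in the double mutant and blue circles the 102 with a lower one; the dashed line marks equal responses, and most genes lie close to it.

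The number of calls rested on replicate 3. With replicate 3 left out of every group, 2 genes were called, both lower by less than 2-fold, and 958 had an unadjusted p under 0.05, although each of the 134 genes kept the sign of its difference. Fits of the same size without replicate 1 and without replicate 2 called 413 and 111 genes. Leaving out 1 library moved the count by more than 1.5 times when that library was replicate 3 of the double-mutant mock group (67 genes), of the double mutant with ATP (80), of bdg-8 with ATP (80) or of bdg-8 mock (86). A fit to the 12 libraries alone called 75 lower and 71 higher genes.

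**Figure D2:**
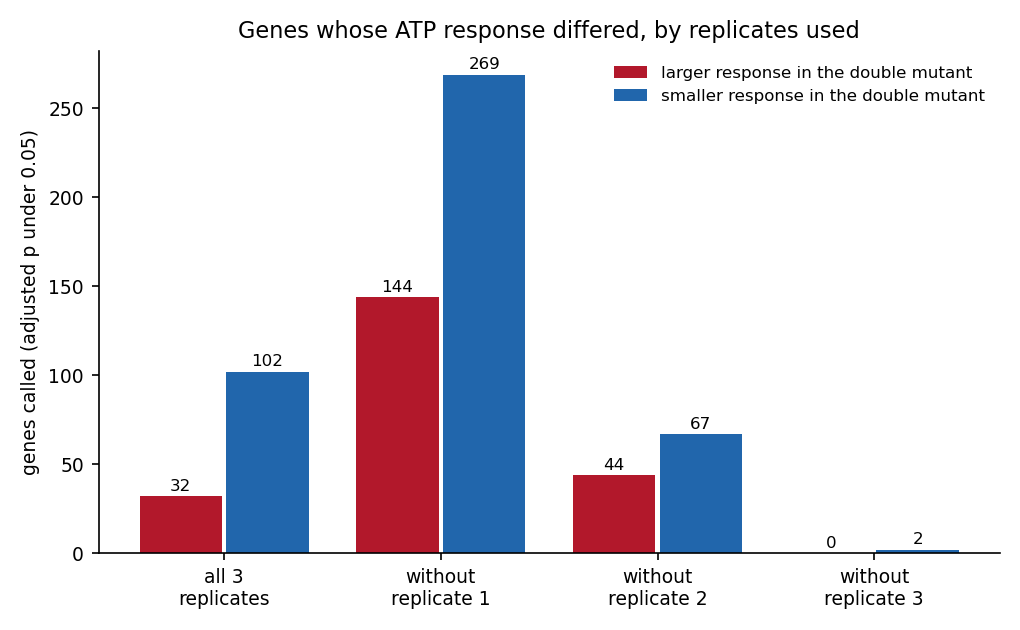
Number of genes called (adjusted p under 0.05) with a higher (red) or lower (blue) ATP response in the double mutant than in bdg-8, with all 3 replicates and with each replicate number left out of every group. The bars fall to 0 higher and 2 lower genes without replicate 3.

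The 2 genes called also without replicate 3 were AT1G02810 and AT3G19240; they are named because of that count, after their values were seen. AT1G02810, annotated in the plant invertase and pectin methylesterase inhibitor superfamily, had 54.4, 47.1 and 51.9 CPM in the double mutant with ATP and 19.0, 20.2 and 20.3 CPM in its mock libraries, against 99.7, 106 and 100 CPM in bdg-8 with ATP and 21.0, 19.6 and 19.5 CPM in bdg-8 mock. The mock libraries of the genotypes overlapped, and with ATP every bdg-8 library was above every double-mutant library. Its responses were 1.36 in the double mutant and 2.34 in bdg-8, a difference of -0.98 ± 0.07 (edgeR adjusted p = 7.4e-08, and 0.014 without replicate 3). AT3G19240, annotated as a Vid27-related protein of vacuolar import and degradation, had 41.2, 37.7 and 40.6 CPM in the double mutant with ATP and 27.7, 29.2 and 30.1 CPM in its mock libraries, against 65.1, 70.6 and 70.4 CPM in bdg-8 with ATP and 28.2, 28.6 and 30.2 CPM in bdg-8 mock. Here too the genotypes separated only with ATP. The difference in response was -0.79 ± 0.07 (edgeR adjusted p = 2.3e-07, and 0.014 without replicate 3).

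The gene with the most negative difference among those averaging at least 1 log2 CPM was CML39, a calmodulin-like protein, one of the small calcium sensors. CML39 had 1.5, 1.11 and 1.62 CPM in the double mutant with ATP and 0.393, 0.304 and 0.383 CPM in its mock libraries, against 16, 20.8 and 19.3 CPM in bdg-8 with ATP and 0.452, 0.208 and 0.626 CPM in bdg-8 mock. The mock groups overlapped near the bottom of the measured range, and with ATP every bdg-8 library was far above every double-mutant library. The response was 1.93 in the double mutant and 5.43 in bdg-8, a difference of -3.50 ± 0.47 (edgeR adjusted p = 0.00049, and 0.15 without replicate 3).

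The other 13 genes at the negative end had differences of -1.51 to -0.98, and for all 14 the 3 double-mutant libraries with ATP lay below the 3 bdg-8 libraries with ATP. They held regulators of hormone and stress signalling, namely ERF13, an ethylene-response-factor transcription factor, JAZ10, a repressor of jasmonate signalling, GH3.1, of the family that joins amino acids to auxin and other hormones, and AT4G37850, a basic helix-loop-helix protein. They also held PROPEP4, a precursor of danger peptides, the lectin receptor kinase LECRK-I.5, MSRB7, a methionine sulfoxide reductase that repairs oxidised protein, and PCK2, a phosphoenolpyruvate carboxykinase. The rest were AT5G19110 of the aspartyl protease family, the mannose-binding lectin AT5G35940, the nodulin-like transporter-family protein AT2G34350, the nucleoporin autopeptidase AT1G59660 and the uncharacterized AT3G19200. At 3 of the 14, AT5G35940, AT4G37850 and LECRK-I.5, the fitted response was below 0 in the double mutant and above 0 in bdg-8. The fall in the double mutant was not called for AT4G37850 and LECRK-I.5 (edgeR adjusted p = 0.14 and 0.063). AT5G35940 responded by -0.89 in the double mutant and 0.58 in bdg-8. Its double-mutant mock libraries were widely spread, at 9.53, 27.1 and 18.7 CPM, against 9.57, 10.2 and 9.74 CPM with ATP, so that replicate 1 showed no fall.

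**Figure D3:**
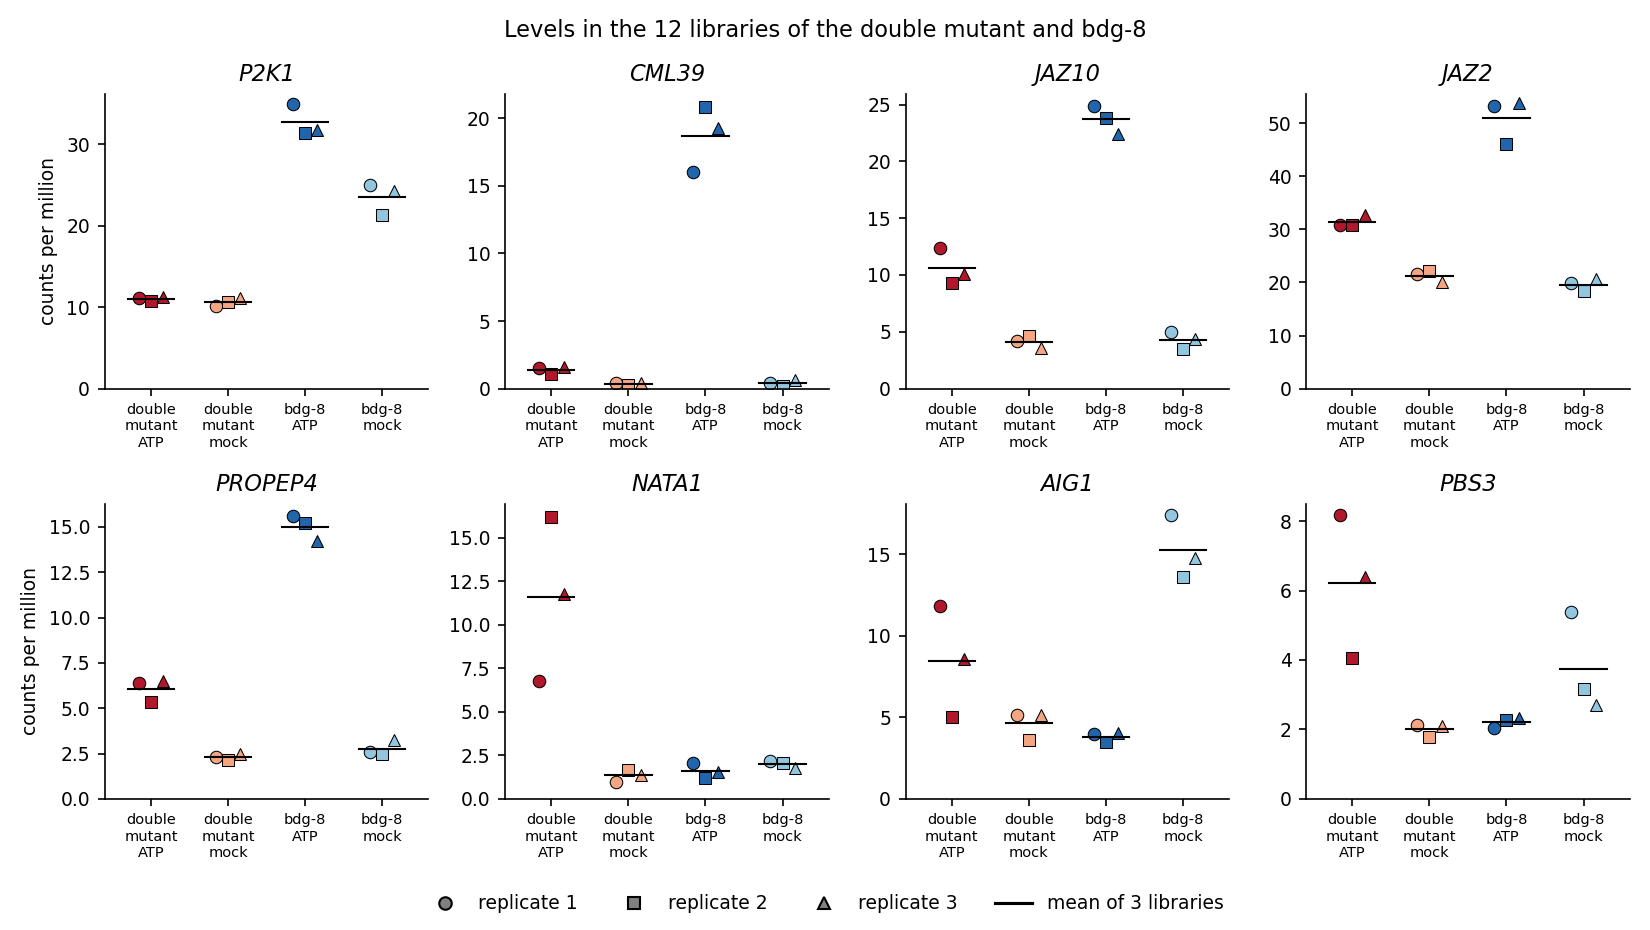
Level in CPM of P2K1, 4 genes with a lower and 3 with a higher ATP response in the double mutant, in each of the 12 libraries; symbols give the replicate number and bars the mean of 3 libraries. CML39 in bdg-8 with ATP lies at 16 to 20.8 CPM against 1.11 to 1.62 CPM in the double mutant, and replicate 3 often falls between replicates 1 and 2.

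The pathway was followed from receptor to output through 20 gene lists with 364 members, of which 349 passed the filter on low counts. The difference in response was called lower at 15 of the tested members and higher at 5, beside 0.486% and 0.152% of all genes tested. Among genes raised by ATP in Col-0, 3% were called lower and 0.253% higher. For those raised at least 2-fold the shares were 3.82% and 0.127%. The list members were chosen with earlier results of these data known and were not tested against these shares. Without replicate 3 none was called by edgeR, with 38 members at an unadjusted p under 0.05 (102 with all replicates), and the count fell below 14 when 1 library was left out in 6 cases: 9 without replicate 3 of bdg-8 mock or of the double mutant with ATP, 10 without replicate 3 of bdg-8 with ATP or of the double-mutant mock group, and 12 and 13 without replicate 2 of the double-mutant mock and ATP groups. DESeq2 called 29.

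Among the lectin receptor kinases of P2K1's own clade and the apyrases, which break down extracellular ATP, 2 of 12 tested members were called lower in the interaction, P2K1 and LECRK-I.5. LECRK-I.5 had 2.23, 2.05 and 1.72 CPM in the double mutant with ATP and 2.36, 2.85 and 2.68 CPM in its mock libraries, against 3.77, 3.12 and 3.24 CPM in bdg-8 with ATP and 1.97, 2.36 and 2.26 CPM in bdg-8 mock. With ATP the genotypes did not overlap, and in mock they did. The difference was -1.01 ± 0.22 (edgeR adjusted p = 0.029). The apyrases APY1 and APY2 had differences of -0.01 and -0.06 and were not called. In mock, 3 clade members were higher in the double mutant than in bdg-8, AT5G60270 (0.46), AT5G60310 (1.15) and AT5G60320 (2.54), while P2K1 was lower. AT5G60320 rested on 0.282 CPM in the double mutant and 0.0455 CPM in bdg-8 (means, n = 3 each), and without replicate 3 P2K1 was the only one of these 4 mock calls left. These receptors are close paralogs, so their counts are uncertain where reads could not be placed uniquely; reads with more than 1 alignment made up 3.13 to 7.29% of the 12 libraries' totals.

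Calcium sensors and calcium-dependent kinases, which read and pass on the calcium signal, all rose with ATP in bdg-8 (16 of 16) and nearly all in the double mutant (15 of 16); without replicate 3, 15 were called in each. Their median response was 2.18 in the double mutant and 2.91 in bdg-8. The difference was negative at 15 of 16 members, with a median of -0.26 over the list and -0.01 over all genes. Over the genes that ATP raised at least 2-fold in Col-0 the median was -0.189, with 75.2% negative. In the calcium list 2 members were called, CML39 and the calcium-dependent protein kinase CPK1. CPK1 had 163, 156 and 154 CPM in the double mutant with ATP and 89.6, 86.4 and 89.8 CPM in its mock libraries, against 181, 178 and 192 CPM in bdg-8 with ATP and 88.5, 87.6 and 88.7 CPM in bdg-8 mock. The mock groups overlapped and the ATP groups did not, with a difference in response of -0.23 ± 0.05 (edgeR adjusted p = 0.035). In the list of 15 calcium channels and pumps, only CNGC4, a cyclic nucleotide-gated channel subunit, was called (-0.35 ± 0.06, edgeR adjusted p = 0.0088). Its response was -0.33 in the double mutant and 0.02 in bdg-8. Both calcium lists were selections. AT1G11960 and CIPK9, which are in neither, were also called lower in the interaction (edgeR adjusted p = 0.00049 and 0.046).

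Pattern receptors, immune kinases and danger-peptide genes mostly rose with ATP in both genotypes. Of 35 members, 28 rose in the double mutant and 29 in bdg-8 (28 in each called without replicate 3), with medians of 0.91 and 1.32. The 1 difference called by edgeR (2 by DESeq2) was PROPEP3, a danger-peptide precursor at 1.53, 1.34 and 1.10 CPM in the double mutant with ATP and 0.557, 0.759 and 0.798 CPM in its mock libraries, against 2.95, 3.54 and 3.87 CPM in bdg-8 with ATP and 0.807, 0.660 and 0.592 CPM in bdg-8 mock. The genotypes overlapped in mock and were separate with ATP, and the difference was -1.40 ± 0.31 (edgeR adjusted p = 0.035). PROPEP4, which was not in that list, had 6.4, 5.32 and 6.51 CPM in the double mutant with ATP and 2.29, 2.13 and 2.46 CPM in its mock libraries, against 15.6, 15.2 and 14.2 CPM in bdg-8 with ATP and 2.61, 2.47 and 3.24 CPM in bdg-8 mock. It was below bdg-8 in both treatments, by far more with ATP (difference in response -1.04 ± 0.21, edgeR adjusted p = 0.018). PEPR1 and PEPR2, the receptors of these peptides, had differences of -0.23 and -0.58 and were not called.

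The transcription factor families showed few called differences. Of the 20 tested ERF and DREB factors, 17 rose with ATP in the double mutant and 18 in bdg-8, and ERF13 alone was called in the interaction. ERF13 had 35.7, 32.3 and 30.5 CPM in the double mutant with ATP and 0.917, 0.683 and 1.21 CPM in its mock libraries, against 61.6, 47.8 and 51.3 CPM in bdg-8 with ATP and 0.387, 0.660 and 0.592 CPM in bdg-8 mock. The double-mutant libraries were above bdg-8 in mock and below it with ATP. Its responses were 5.10 in the double mutant and 6.62 in bdg-8, a difference of -1.51 ± 0.34 (edgeR adjusted p = 0.036). None of the 23 WRKY factors was called by edgeR (8 at an unadjusted p under 0.05, 2 called by DESeq2), and their median response was 1.41 in the double mutant and 1.40 in bdg-8. The 2 with the smallest p were WRKY54 (1.35 ± 0.34) and WRKY70 (0.93 ± 0.24), both immune regulators with an edgeR adjusted p of 0.075. None of the 18 zinc finger and MYB stress factors was called by edgeR or DESeq2 (3 at an unadjusted p under 0.05), and AZF2 and AT2G28200, the nearest to the threshold, had differences of -0.54 and 0.50.

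Jasmonate signalling held 4 called members of 24. JAZ proteins repress jasmonate-responsive transcription and are themselves induced by the hormone; JAZ2, JAZ3 and JAZ10 had lower responses in the double mutant. JAZ10 had 12.4, 9.32 and 10.1 CPM in the double mutant with ATP and 4.16, 4.63 and 3.61 CPM in its mock libraries, against 24.9, 23.8 and 22.4 CPM in bdg-8 with ATP and 5, 3.47 and 4.35 CPM in bdg-8 mock. JAZ2 had 30.8, 30.8 and 32.6 CPM in the double mutant with ATP and 21.6, 22.1 and 20.0 CPM in its mock libraries, against 53.2, 46.0 and 53.8 CPM in bdg-8 with ATP and 19.8, 18.4 and 20.6 CPM in bdg-8 mock. For both genes the mock groups overlapped and the ATP groups did not. The differences were -1.10 ± 0.18 for JAZ10 (edgeR adjusted p = 0.0042, and 0.37 without replicate 3) and -0.82 ± 0.10 for JAZ2 (edgeR adjusted p = 0.00013, and 0.065 without replicate 3). JAZ3 responded by 0.09 in the double mutant and 0.63 in bdg-8, a difference of -0.54 ± 0.10 (edgeR adjusted p = 0.0082).

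The jasmonate output gene VSP2, a vegetative storage protein, went the other way. VSP2 had 21.8, 20.2 and 21.2 CPM in the double mutant with ATP and 9.47, 11.5 and 9.42 CPM in its mock libraries, against 12.2, 5.97 and 9.30 CPM in bdg-8 with ATP and 9.84, 14.4 and 12.2 CPM in bdg-8 mock. The double mutant with ATP was above all other libraries, and the difference was 1.45 ± 0.33 (edgeR adjusted p = 0.041). Over the 24 tested members of the list the median difference was -0.14, with 3 called lower and 1 higher. No jasmonate synthesis gene of 13 was called by edgeR or DESeq2 (2 at an unadjusted p under 0.05); AOC3 and AOC4, which code for allene oxide cyclases, had differences of -0.26 and -0.22.

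Salicylic acid genes included 2 called members, both higher in the double mutant. PBS3 joins glutamate to isochorismate and ICS1 makes isochorismate, successive steps of salicylic acid synthesis. PBS3 had 8.18, 4.06 and 6.4 CPM in the double mutant with ATP and 2.13, 1.78 and 2.11 CPM in its mock libraries, against 2.05, 2.28 and 2.34 CPM in bdg-8 with ATP and 5.39, 3.16 and 2.71 CPM in bdg-8 mock. The double mutant was above bdg-8 with ATP and below it in mock, so both treatments entered the difference of 2.38 ± 0.43 (edgeR adjusted p = 0.0083). ICS1 had 25.6, 19.8 and 22 CPM in the double mutant with ATP and 15.2, 15.4 and 16.7 CPM in its mock libraries, against 17.8, 16 and 16.6 CPM in bdg-8 with ATP and 19.3, 17.6 and 17.9 CPM in bdg-8 mock. It followed the same pattern at a smaller size, 0.63 ± 0.14 (edgeR adjusted p = 0.029). The median over the 21 members was 0.22, and 15 rose with ATP in the double mutant against 9 in bdg-8. These counts were not tested against each other; without replicate 3, 12 members were called with ATP in the double mutant and 10 in bdg-8, and the median difference was 0.31. The list of cysteine-rich receptor-like kinases had a median difference of 0.33 over 16 tested members (0.13 without replicate 3). None of them was called by edgeR (7 at an unadjusted p under 0.05, 1 called by DESeq2). CRK45 (1.26 ± 0.35) and CRK14 (0.62 ± 0.20), the 2 nearest to the threshold, had edgeR adjusted p of 0.11 and 0.17. CRK30, a family member outside the list, was called in the other direction, lower in the double mutant (edgeR adjusted p = 0.043).

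The auxin-response and wall-loosening lists had 3 called members. IAA19, an Aux/IAA repressor of auxin response, had 6.44, 5.90 and 6.02 CPM in the double mutant with ATP and 4.72, 4.93 and 4.98 CPM in its mock libraries, against 9.15, 8.74 and 8.30 CPM in bdg-8 with ATP and 4.42, 4.76 and 4.32 CPM in bdg-8 mock. The ATP groups were separate and the difference was -0.63 ± 0.12 (edgeR adjusted p = 0.012), the 1 call by edgeR among 9 auxin-response genes (2 by DESeq2). TCH4, a xyloglucan-modifying wall enzyme, had 896, 879 and 877 CPM in the double mutant with ATP and 44.3, 29.9 and 36.5 CPM in its mock libraries, against 918, 872 and 902 CPM in bdg-8 with ATP and 28.9, 22.3 and 23.4 CPM in bdg-8 mock. Here the ATP levels overlapped and the mock level was higher in the double mutant, which gave a difference in response of -0.59 ± 0.14 (edgeR adjusted p = 0.040). XTH9, of the same enzyme family, had a higher response in the double mutant (0.42 ± 0.10, edgeR adjusted p = 0.047). These were the 2 edgeR calls among 14 listed wall-loosening genes, where DESeq2 made 3. Outside the 2 lists, the expansin EXPA9 and GH3.1 were also called lower (edgeR adjusted p = 0.019 and 0.0083).

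The remaining lists held at most 1 edgeR call each. EBF1, an F-box protein that removes ethylene-signalling factors, responded less in the double mutant (-0.27 ± 0.05, edgeR adjusted p = 0.016), 1 of 15 ethylene genes. ERD10, a dehydrin, had a difference of -0.31 ± 0.06 (edgeR adjusted p = 0.0083), 1 of 16 abscisic acid and dehydration genes. IGMT1, an indole glucosinolate methyltransferase with close paralogs, had -0.68 ± 0.15 (edgeR adjusted p = 0.038), 1 of 16 listed indole glucosinolate and camalexin genes (3 by DESeq2). IGMT3, of the same family but outside the list, was also called lower (edgeR adjusted p = 0.0042). LHY, a morning-expressed clock factor, had 7.52, 9.41 and 9.05 CPM in the double mutant with ATP and 9.70, 6.91 and 9.10 CPM in its mock libraries, against 6.23, 4.68 and 5.28 CPM in bdg-8 with ATP and 10.2, 10.5 and 10.3 CPM in bdg-8 mock. It fell with ATP in bdg-8, and the difference in response was 0.94 ± 0.20 (edgeR adjusted p = 0.026), 1 of 11 clock genes. None of 32 cutin and wax genes, 14 phosphate starvation genes or 9 heat shock genes was called by edgeR or DESeq2, and 5, 2 and 2 of them had an unadjusted p under 0.05. The nearest cuticle genes were CYP86A2 and CYP86A8, fatty acid hydroxylases, with differences of -0.17 and 0.25; MGD3 and SQD1, which replace phospholipids under phosphate shortage, had -1.41 and -0.35; and the heat shock genes HSP101 and HSP17.6II had -0.42 and 1.57.

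The positive end of the interaction was led by NATA1, AIG1, PBS3 and AT5G24200, with differences of 2.38 to 3.42. NATA1, which acetylates ornithine, had 6.75, 16.2 and 11.8 CPM in the double mutant with ATP and 0.983, 1.67 and 1.40 CPM in its mock libraries, against 2.05, 1.18 and 1.56 CPM in bdg-8 with ATP and 2.16, 2.05 and 1.77 CPM in bdg-8 mock. AIG1, a gene first found as induced by the bacterial effector AvrRpt2, had 11.8, 5 and 8.57 CPM in the double mutant with ATP and 5.14, 3.64 and 5.17 CPM in its mock libraries, against 3.99, 3.46 and 4.02 CPM in bdg-8 with ATP and 17.4, 13.6 and 14.8 CPM in bdg-8 mock. In both genes the 3 double-mutant libraries with ATP were widely spread but above all bdg-8 libraries with ATP, and the double-mutant mock libraries were below those of bdg-8. The differences were 3.42 ± 0.59 for NATA1 (edgeR adjusted p = 0.0061) and 2.83 ± 0.47 for AIG1 (edgeR adjusted p = 0.0042). The alpha/beta hydrolase AT5G24200 kept its level in the double mutant, with 5.22, 2.66 and 3.96 CPM with ATP and 3.77, 4.18 and 3.89 CPM in mock, against 2.11, 1.82 and 1.82 CPM in bdg-8 with ATP and 12.4, 8.24 and 9.71 CPM in bdg-8 mock. Its response was -0.01 in the double mutant and -2.39 in bdg-8 (difference 2.38 ± 0.39, edgeR adjusted p = 0.0041).

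Among the other genes at the positive end, the osmotin OSM34 and AT4G33720, of the family of pathogenesis-related protein 1, were raised by ATP in the double mutant. OSM34 had 43.5, 64.1 and 56.7 CPM in the double mutant with ATP and 22.7, 21.4 and 22.6 CPM in its mock libraries, against 48.5, 47.8 and 47.3 CPM in bdg-8 with ATP and 40.2, 51.5 and 48.5 CPM in bdg-8 mock. The genotypes overlapped with ATP and were separate in mock, where the double mutant was lower, and the difference in response was 1.26 ± 0.21 (edgeR adjusted p = 0.0042). AT4G33720 had 181, 219 and 201 CPM in the double mutant with ATP and 84.4, 76.4 and 80.5 CPM in its mock libraries, against 168, 114 and 137 CPM in bdg-8 with ATP and 138, 110 and 124 CPM in bdg-8 mock. It was above bdg-8 with ATP and below it in mock, a difference in response of 1.15 ± 0.18 (edgeR adjusted p = 0.0024). SMB, a root-cap NAC factor, AT5G38930, a cupin, and AT1G62500, of the lipid-transfer protein superfamily, had differences of 1.30, 1.36 and 1.16.

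More genes differed between the genotypes with ATP than in mock. In mock, 80 genes were higher in the double mutant than in bdg-8 (0.381% of genes tested) and 60 were lower (0.286%). With ATP, 437 were higher (2.08%) and 961 lower (4.58%). Without replicate 3 the totals were 6 in mock and 76 with ATP. The mock total was 40 without replicate 1 of the double-mutant mock group, 215 without its replicate 2 and 63 without its replicate 3, and it was 66 and 57 without replicates 2 and 3 of bdg-8 mock. The ATP total was 756 without replicate 3 of the double mutant with ATP, and 725 and 886 without replicates 2 and 3 of bdg-8 with ATP. The calcium list had 7 of 16 members lower with ATP (1 called without replicate 3) and none called in mock by edgeR or DESeq2 (1 at an unadjusted p under 0.05). Jasmonate signalling had 7 of 24 lower with ATP and 2 higher (2 called in all without replicate 3), and none called in mock by either tool (4 at an unadjusted p under 0.05).

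Among 30 markers of tissues within the seedling, 5 were called between the genotypes with ATP, all lower in the double mutant, and none without replicate 3. In bulk samples, fewer cells of a type and less RNA per cell cannot be told apart. The summed level of 7 root hair markers was 133 to 162 CPM in the double mutant with ATP and 161 to 185 CPM in its mock libraries, against 176 to 199 CPM in bdg-8 with ATP and 163 to 210 CPM in bdg-8 mock; 2 of the 7, COW1 and EXPA18, were lower in the double mutant with ATP. The sum of 8 root endodermis markers was 28.0 to 31.6 CPM in the double mutant with ATP and 34.1 to 36.2 CPM in its mock libraries, against 36.7 to 46.0 CPM in bdg-8 with ATP and 40.9 to 42.1 CPM in bdg-8 mock; 3 of the 8, CASP1, CASP2 and PER64, were lower in the double mutant with ATP. Green tissue markers summed to 17000 to 21000 CPM in the double mutant with ATP against 20800 to 23500 CPM in bdg-8 with ATP, and mitotic markers to 198 to 203 CPM against 185 to 192 CPM. No marker was at 0 over all 24 libraries together, and none of the 30 was called in the interaction by edgeR or DESeq2 (3 at an unadjusted p under 0.05). The part of these markers in the calls was not tested.

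Gene sets defined in libraries outside the comparison gave the same direction. ATP raised 2765 genes in Col-0, whose 6 libraries enter neither arm. Over them the median response was 0.70 in the double mutant and 0.82 in bdg-8, the median difference was -0.102, and 75.9% had a negative difference, against -0.012 and 53.4% over all genes tested. Of these genes, 83 were called lower (3%) and 7 higher (0.253%), against 0.486% and 0.152% of all genes tested; without replicate 3 the counts were 2 and 0. For the 785 that ATP raised at least 2-fold in Col-0 the medians were 1.96 in the double mutant and 2.18 in bdg-8, with a difference of -0.189. The 1820 genes lowered by ATP in Col-0 had medians of -0.36 in the double mutant and -0.38 in bdg-8. Without replicate 3 the median difference over the raised genes was -0.096, with 73.5% negative.

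The same question was then asked in plants with wild-type BDG1. The ATP response was lower in p2k1-3 than in Col-0 at 797 genes (3.8% of genes tested) and higher at 143 (0.681%); without replicate 3 it was lower at 149 and higher at none. This comparison shares no library with that of the double mutant and bdg-8. Of the 102 genes with a lower response in the double mutant, 51 were also lower in p2k1-3, which is 50% of the 102 and 6.4% of the 797, and 92 had a negative difference there. Of the same 102, 83 were among the 2765 genes raised by ATP in Col-0. The median difference between p2k1-3 and Col-0 was -0.346 over the 102, -0.197 over the 2765 and -0.004 over all genes tested. The 2765 were chosen in Col-0 libraries that also enter this difference. Without replicate 3 in p2k1-3 and Col-0, 21 of the 102 were called lower there and 91 had a negative difference. Of the 32 with a higher response, 1 was also higher in p2k1-3 (3.12% of the 32 and 0.699% of the 143), 2 were lower, and 16 had a negative difference. Across all genes tested, which are not independent replicates, the 2 sets of differences correlated at 0.116.

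**Figure D4:**
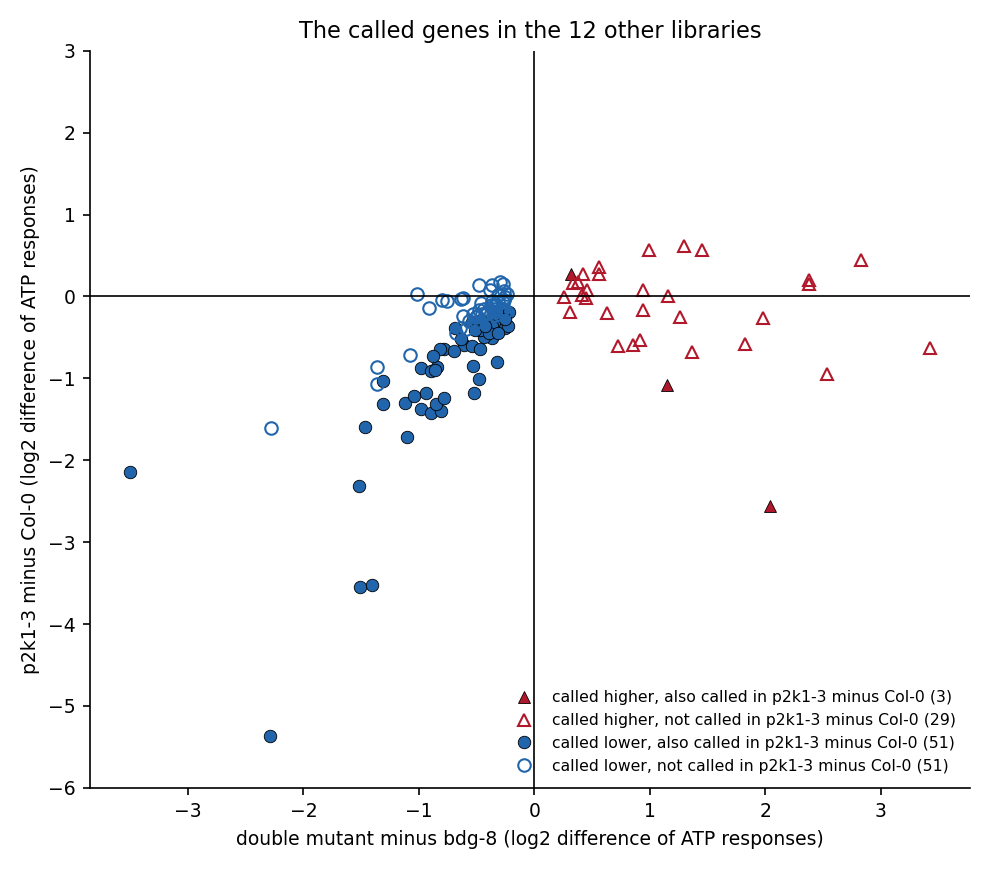
Difference in ATP response between p2k1-3 and Col-0 (vertical axis, log2) against that between the double mutant and bdg-8 (horizontal axis, log2) for the 134 called genes; filled symbols were also called in p2k1-3 against Col-0. Of the 102 blue genes 92 lie below 0 on the vertical axis, and of the 32 red genes 16 do.

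The naming rule and the fit without replicate 3 gave 27 genes called lower in the double mutant. Of these, 18 were also called lower in p2k1-3 and 9 were not called there. The differences between p2k1-3 and Col-0 were -2.15 for CML39, -3.54 for ERF13, -1.72 for JAZ10, -0.65 for JAZ2, -1.22 for PROPEP4 and -0.52 for IAA19, all called by edgeR. The 9 were LECRK-I.5 (0.03), P2K1 itself (-0.21), CNGC4 (-0.11), EBF1 (-0.15), IGMT1 (-0.45), TCH4 (-0.40), PCK2 (-0.72), AT4G37850 (-0.86) and AT2G34350 (-1.07). None of the leading positive genes NATA1 (-0.63), AIG1 (0.45), PBS3 (0.15) and AT5G24200 (0.20) was called by edgeR in p2k1-3 against Col-0, and AT4G33720 was called in the opposite direction (-1.08).

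A 3-way interaction tested whether the effect of P2K1 loss on the ATP response differed between the bdg-8 background and the Col-0 background. It was higher in the bdg-8 background at 243 genes (1.16% of genes tested) and lower at 33 (0.157%). Without replicate 3 edgeR called none, with 1062 genes at an unadjusted p under 0.05, and all 276 genes kept their sign. Of the 23 WRKY factors, 15 had a lower response in p2k1-3 than in Col-0, none was called by edgeR in the double mutant against bdg-8 (2 by DESeq2), and 9 were higher in the 3-way test. Of 16 cysteine-rich receptor-like kinases these edgeR counts were 9, none (1 by DESeq2) and 7, and for the 21 salicylic acid genes 8 were lower in p2k1-3, 2 were higher in the double mutant and 7 were higher in the 3-way test. Without replicate 3 the p2k1-3 counts were 6, 2 and 4 for the 3 lists, and the 3-way counts were 0. The list medians were -0.83 in p2k1-3 against Col-0 and 0.04 in the double mutant against bdg-8 for the WRKY factors, -0.90 and 0.33 for the receptor-like kinases (-0.94 and 0.13 without replicate 3), and -0.46 and 0.22 for the salicylic acid genes.

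**Figure D5:**
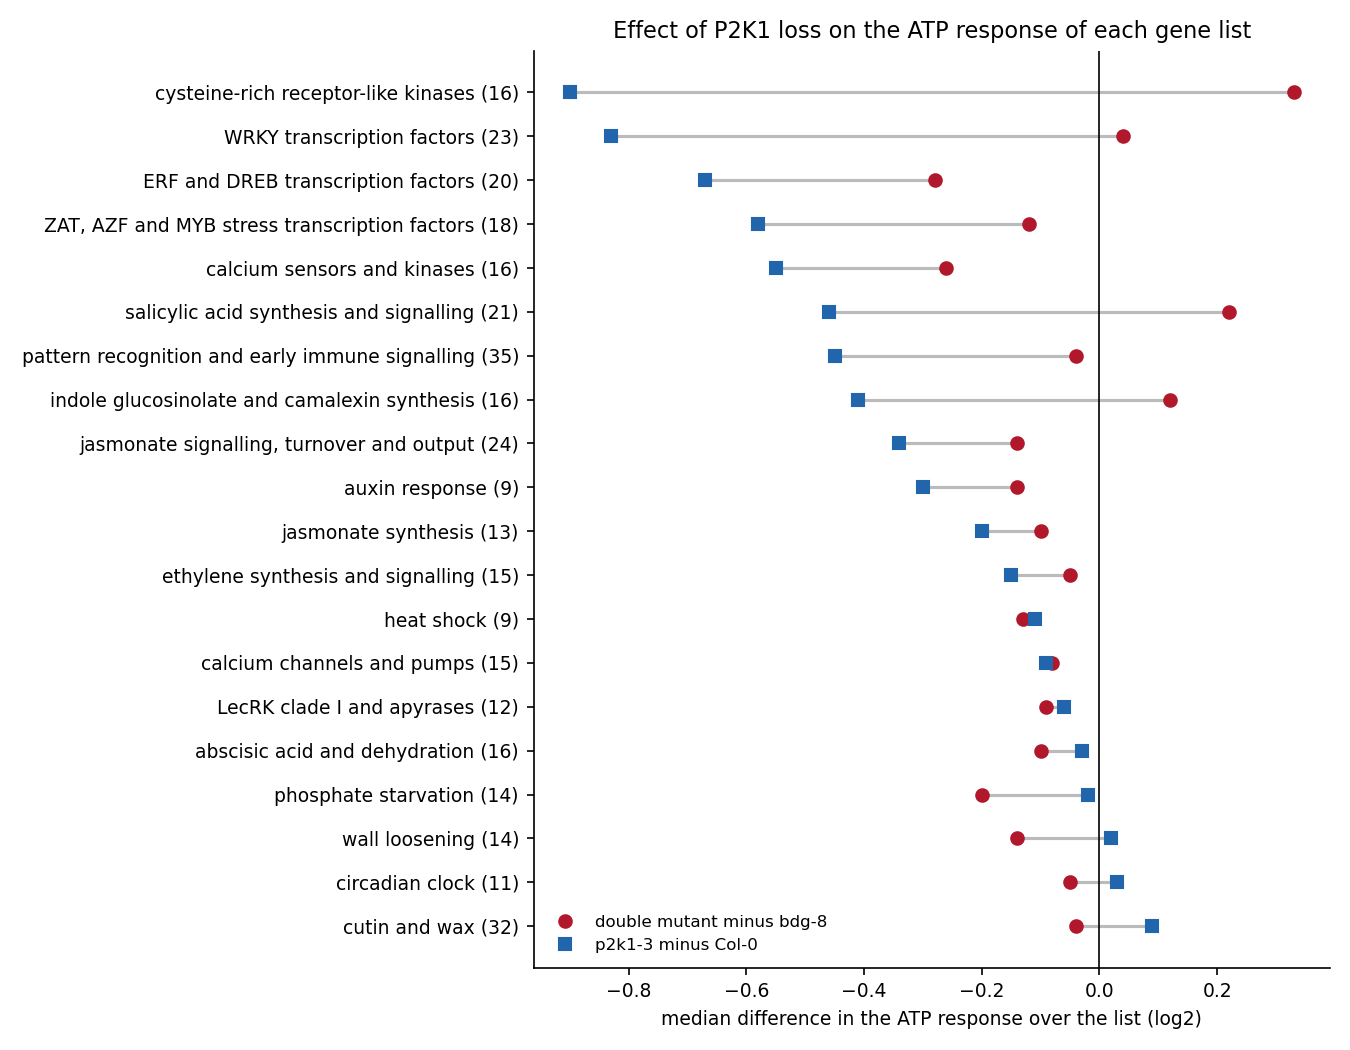
Median difference in ATP response (log2) over the tested members of each gene list, whose number is in brackets: red circles for the double mutant minus bdg-8, blue squares for p2k1-3 minus Col-0. The cysteine-rich receptor-like kinases lie at 0.33 and -0.90 (0.13 and -0.94 without replicate 3) and the calcium sensors and kinases at -0.26 and -0.55.

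The calcium list had 2 members lower in the double mutant and 12 lower in p2k1-3 (6 without replicate 3), and 3 were higher in the 3-way test. The jasmonate signalling list had 3 lower and 1 higher in the double mutant and 7 lower in p2k1-3 (4 without replicate 3), and 1 was higher in the 3-way test. For CML39 and JAZ10 the 3-way differences were -1.35 and 0.61, with edgeR adjusted p of 0.45 and 0.38, which does not show that the effects were equal.

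The largest positive 3-way value among genes averaging at least 1 log2 CPM was that of TAT3, a jasmonate-inducible tyrosine aminotransferase. TAT3 had 21.8, 8.97 and 13.3 CPM in the double mutant with ATP and 10.8, 5.24 and 7.60 CPM in its mock libraries, against 28.6, 22.6 and 27.3 CPM in bdg-8 with ATP and 18.8, 13.8 and 15.8 CPM in bdg-8 mock. In the other background it had 1.37, 2.30 and 1.99 CPM in p2k1-3 with ATP and 1.55, 7.51 and 4.72 CPM in p2k1-3 mock, against 17.0, 12.3 and 14.6 CPM in Col-0 with ATP and 0.977, 1.07 and 0.721 CPM in Col-0 mock. Its response was 0.87 in the double mutant and 0.70 in bdg-8, against -1.27 in p2k1-3 and 3.99 in Col-0, and every mock library of the other 3 genotypes was above those of Col-0. The 3-way difference was 5.44 ± 0.78 (edgeR adjusted p = 0.00063). WRKY70 had 66.5, 41.0 and 52.6 CPM in the double mutant with ATP and 6.72, 6.34 and 6.06 CPM in its mock libraries, against 36.5, 40.6 and 39.3 CPM in bdg-8 with ATP and 10.8, 6.91 and 8.6 CPM in bdg-8 mock. In p2k1-3 it averaged 22.2 ± 3.57 CPM with ATP and 9.49 ± 1.73 CPM in mock, against 21.3 ± 1.33 CPM in Col-0 with ATP and 3.94 ± 0.572 CPM in Col-0 mock (SD, n = 3 each). In mock the mean of p2k1-3 was above that of Col-0, while the double-mutant libraries lay below those of bdg-8, and the 3-way difference was 2.14 ± 0.35 (edgeR adjusted p = 0.0025).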

How the data were processed

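Messenger RNA of seedlings was sequenced in 8 groups of 3 libraries. The deposited values were raw counts per gene; cutadapt 1.13, STAR 2.7.4a, HTSeq 0.13.5 and MultiQC 1.9 made them, per the submitters' processing notes. Not given in the sources used here were settings, genome build, annotation and strand, so overlapping and antisense genes are uncertain and no coordinates are printed. Counting summary entries, 7.6 to 11.78% of the totals of the 12 libraries, were left out. Symbols came from the TAIR10.1 gene table, which held 33056 of the 33245 identifiers.

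The counts were analysed in R 4.3.3 with edgeR 4.0.16: TMM factors (0.954 to 1.07), the default expression filter (20995 genes), 1 mean per group, and the quasi-likelihood F-test with Benjamini-Hochberg adjustment (16 residual degrees of freedom). Standard errors were derived from the F statistic. The procedure was checked on simulated counts. DESeq2 1.42.0, other scalings and filters, a replicate block, fits without libraries and a fit to the 12 libraries were alternatives.

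Genes were named by rule: the mutated genes, the 14 most negative and 10 most positive called differences averaging at least 1 log2 CPM, up to 4 called members per list (otherwise the 2 with the smallest p), and 5 genes in each direction of the 3-way test. Members, lists and comparisons were chosen with earlier results of these data known. WRKY and other list members quoted outside the rule, and called genes quoted from outside the lists, were picked after their values were seen. The main model did not pair samples by replicate number. In their deviations from the group means, 11 of 12 libraries correlated best with their own number, so a fit with a replicate block is also given.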

Additional observations from a re-analysis of the deposited data

Results flagged for a closer look

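The ATP response differed between the double mutant and bdg-8 at 134 genes by a test of the difference itself, and the effect of P2K1 loss on it differed between the bdg-8 and Col-0 backgrounds at 276 genes. At the positive end of that 3-way test, TAT3 had 5.44, AT5G52760, of a copper transport protein family, 3.05, the chitinase-family gene AT2G43620 3.03, the uncharacterized AT5G36907 3.01 and FAMT, a farnesoic acid methyltransferase, 3.00. AT2G43620 had 138, 145 and 143 CPM in the double mutant with ATP, against 84.5, 90.2 and 79.5 CPM in bdg-8 with ATP. The larger part of its 3-way value came from plants with wild-type BDG1. Its difference in response was -2.055 for p2k1-3 minus Col-0, but 0.978 for the double mutant minus bdg-8. The p2k1-3 mock libraries were widely spread, at 66.2, 158 and 108 CPM, and those with ATP had 28, 23.8 and 26.5 CPM. Col-0 had 29.2, 29 and 29.3 CPM in mock and a scattered 44.9, 11.7 and 29 CPM with ATP. At the negative end, TIP2;3, a tonoplast aquaporin, had -1.20, the monooxygenase MO1 -1.02, AT2G36970, of the UDP-glycosyltransferase superfamily, -0.88, NDA1, an alternative NADH dehydrogenase, -0.81 and MSL5, a mechanosensitive channel, -0.74. TIP2;3 had 8.08, 4.79 and 6.2 CPM in the double mutant with ATP, against 8.38, 11.8 and 10.9 CPM in bdg-8 with ATP. None of these 10 genes was called by edgeR in the double mutant against bdg-8 alone, where their adjusted p ran from 0.057 to 0.97. Without replicate 3 none of the 3-way calls remained.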

How the results depend on the processing

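With each replicate or library left out in turn, the genes called numbered 2 to 413 for the interaction (2 to 269 lower, 0 to 144 higher), 4269 to 7140 for ATP in the double mutant, 4852 to 7611 for ATP in bdg-8, 6 to 302 in mock, 76 to 1857 with ATP, 149 to 1064 for p2k1-3 against Col-0, 0 to 427 for the 3-way test and 0 to 44 among the list members. The lowest value of each came without replicate 3, and the cause was not tested. DESeq2 called 223 genes in the interaction (172 lower, 51 higher), an adjusted p under 0.01 left 42 (32 lower, 10 higher), and the 12 libraries alone gave 71 higher. Upper-quartile scaling gave 10899 calls for ATP in the double mutant and 11851 in bdg-8. The median interaction over genes raised by ATP in Col-0 was -0.189 for those raised at least 2-fold. It stayed between -0.122 and -0.092 when replicates or libraries were left out, with the raised genes chosen anew in each fit. The -0.122 came without replicate 3, where the 2765 genes chosen with all replicates gave -0.096. RLE scaling and both other filters kept each of the 7 totals within 1.5 times its value. BDG1, which was not called, had a difference of -0.153 to 0.027 when libraries were left out, so its sign was not settled.

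Samples with the same replicate number correlated at -0.0123 to 0.154 in their deviations from the group means, over 0.1 in 5 of 18 pairs, and 11 of 12 libraries correlated best with their own number, a hint from the data and not the design. With the replicate block 199 genes were called in the interaction, 158 of them lower, and 273 in mock.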
